A study of Mus musculus with 8 samples.

Results

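The vascular endothelial growth factor (VEGF) and angiopoietin ligands and receptors are described here across 8 arrays of mouse cortical neurosphere cultures that were differentiated with or without an earlier exposure to ethanol. The members were fixed by gene symbol: the ligands Vegfa, Vegfb, Vegfc, Pgf, Angpt1 and Angpt2, and the receptors Kdr, Flt1, Flt4 and Tek. Every probe that the array's annotation assigns to these symbols was taken, which gave 11 probes for the 10 genes, of 21582 probes in all, whose annotation names 15094 genes. Angpt1 had 2 probes and the other genes 1 each. Neurospheres are balls of neural stem and progenitor cells that grow in suspension; these came from the cerebral cortex of mouse embryos at gestational day 12.5. Control cultures grew in mitogenic medium and then differentiated after epidermal growth factor and leukaemia inhibitory factor were removed. Exposed cultures received ethanol at 320 mg/dl for 5 days in mitogenic medium, and then differentiated for 3 days without ethanol. Both arms therefore shared basic fibroblast growth factor throughout. Control and exposed RNA were hybridised together on each two-colour array. The exposed RNA carried the dye Cy3 on replicates 1 to 4 and Cy5 on replicates 5 to 8. The labels name no strain, sex or number of embryos, and do not tie arrays to separate cultures. The p-values below thus reflect array-to-array spread, which may be technical.

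VEGF ligands bind receptor tyrosine kinases. Vegfa binds both Flt1 (VEGF receptor 1) and Kdr (VEGF receptor 2), Vegfb and placental growth factor (Pgf) bind Flt1 but not Kdr, and Vegfc binds Flt4 (VEGF receptor 3), the receptor best known from lymphatic vessels. Kdr carries most of the growth signal in endothelium, while Flt1 binds Vegfa tightly, signals weakly and also exists in a soluble form that traps ligand. The angiopoietins bind the receptor Tek (Tie2): Angpt1 activates it and steadies vessels, and Angpt2 acts in a context-dependent way and often opposes Angpt1. In the developing cortex, progenitors make Vegfa, which draws vessels into the tissue, and neural cells can carry VEGF receptors themselves.

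To show the regulatory sequence next to the members that the results turn on, the 250 bases upstream of the annotated start are printed for Vegfb and Flt1, the members with the smallest p-values below, and for Kdr, the closest relative of Flt1. They come from RefSeq (GRCm38.p6), which held promoters for 8 of the 10 genes; Angpt1 and Angpt2 had no entry. All 3 genes lie on the minus strand, and the sequences are given 5′ to 3′ along the gene: Vegfb at chr19:6987652-6987901, Flt1 at chr5:147726012-147726261 and Kdr at chr5:75978456-75978705. Capitals mark the core of the hypoxia response element, the site of hypoxia-inducible factors, searched as ACGTG and GCGTG on both strands, so that CACGT and CACGC are the same cores read from the other strand. ACGTG overlaps its own reverse-strand match where CACGTG occurs.
Vegfb: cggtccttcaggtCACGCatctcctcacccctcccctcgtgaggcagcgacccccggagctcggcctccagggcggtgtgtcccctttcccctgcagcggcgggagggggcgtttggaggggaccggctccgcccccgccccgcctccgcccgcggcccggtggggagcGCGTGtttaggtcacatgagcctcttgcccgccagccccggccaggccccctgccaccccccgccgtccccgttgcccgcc
Flt1: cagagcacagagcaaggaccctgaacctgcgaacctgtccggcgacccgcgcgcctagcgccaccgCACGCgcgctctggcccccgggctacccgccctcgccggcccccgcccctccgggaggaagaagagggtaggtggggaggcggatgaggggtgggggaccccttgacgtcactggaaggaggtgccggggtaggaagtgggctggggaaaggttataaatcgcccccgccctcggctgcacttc
Kdr: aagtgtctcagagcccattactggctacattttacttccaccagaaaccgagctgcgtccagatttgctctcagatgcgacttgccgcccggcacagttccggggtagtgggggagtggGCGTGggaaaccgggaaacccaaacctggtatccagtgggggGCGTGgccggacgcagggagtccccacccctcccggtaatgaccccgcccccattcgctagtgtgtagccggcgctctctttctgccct
GCGTG occurred 2 times for Vegfb, 1 time for Flt1 and 2 times for Kdr, and ACGTG in none of the 3. The 8 genes had 10 promoters, as Vegfa and Pgf had 2 each. Of these 10 promoters, 5 held at least 1 of the cores, against 38.6% of 32851 RefSeq promoters cut to the same length. These matches describe letters in a window and are not measured binding sites.

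The values are log2 ratios of the 2 dyes, 1 per probe and array, centred here on each array's median. They hold no intensity, so the level of a gene cannot be given. No source used here states which dye or condition was the numerator. Each probe was therefore described by 2 numbers. The shared part averages the 2 dye orientations and would hold the ethanol effect if the ratio was deposited as condition over condition. The turning part is the gap between the orientation means (Cy5 minus Cy3) divided by 2 and would hold it if the ratio was deposited as dye over dye. A sign in either part gives no direction for ethanol. Values recorded as exactly 0, or at the array's highest value, were treated as not computable and left out. Per array, 2565 to 5200 probes were exactly 0 and 108 to 464 probes shared the highest value. Each array had 16274 to 18802 computable probes, and the test covered the 15345 probes that had at least 3 values in each orientation. The number of arrays limits the precision.

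No member of the family passed the test in either part. Of the 9 family probes that could be tested, 0 were below 0.05 after adjustment in the shared part (limma, Benjamini-Hochberg over all 15345 probes; adjusted p 0.441 to 0.996), where 0 probes of all (0.0%) passed. In that part 0 of the 9 had an unadjusted p under 0.05, against 13.9% of all probes. In the turning part 0 of the 9 passed (limma, adjusted p 0.261 to 0.994), where 1.56% of all probes passed. There 2 of the 9, Vegfb and Flt1, had an unadjusted p under 0.05, against 13.8% of all probes. The orientations did not overlap for 0 of the 9 members, against 10.9% of the probes tested, and 0 of the 9 kept 1 sign throughout, against 3.57%. The family's median was 0.01 in the shared part and 0.03 in the turning part, beside -0.06 and 0.11 for all probes tested. By sign, 5 of 9 were positive in each part, against 46.1% and 56.9% of all probes. On the values as deposited, without centring, 7 of 9 were positive in the turning part, where 77.2% of all probes were.

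**Figure D1:**
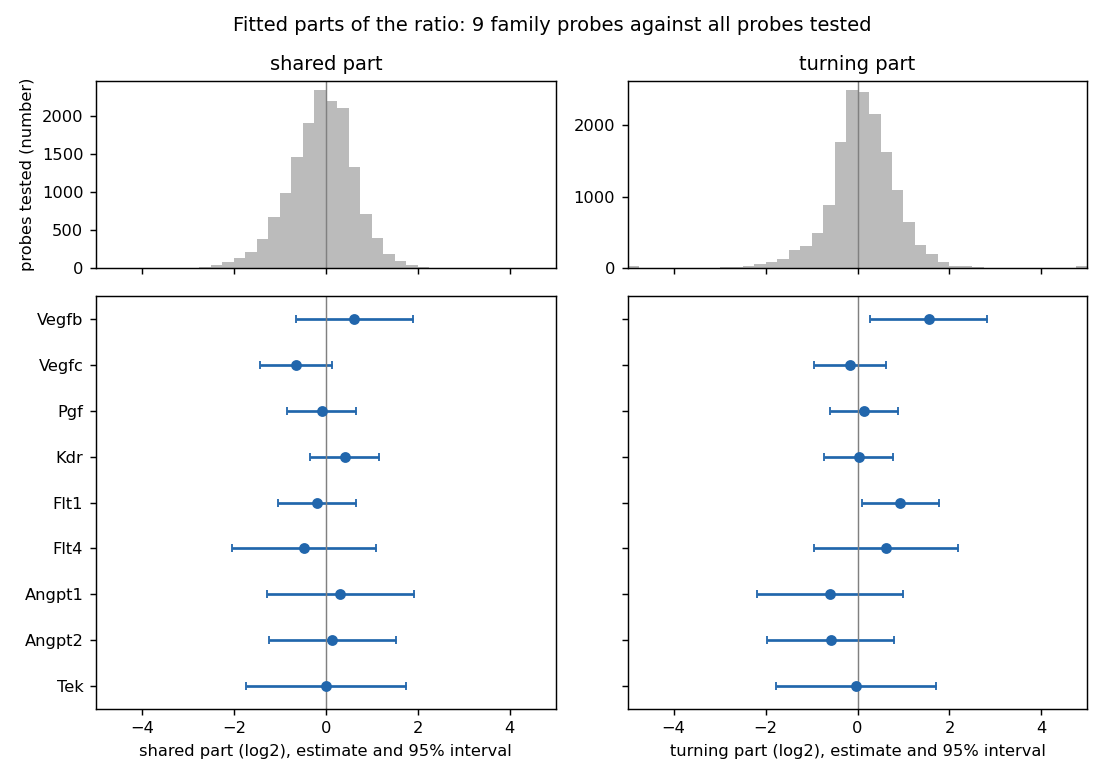
Fitted shared part (left) and turning part (right) of the 9 tested family probes in log2 units, with points for estimates and bars for 95% intervals of the moderated fit; the grey histograms above show all 15345 probes tested, with the end bars holding values beyond the axis. The intervals of Vegfb and Flt1 in the turning part lie above 0 before adjustment over all probes, and all other intervals include 0.

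Among the ligands, Vegfa could not be tested. Its probe (NM_009505) had a computable ratio on 4 of 8 arrays, and its deposited value was exactly 0 on replicates 1, 5, 6 and 7. With ethanol in Cy3 it read 0.22, 3.91 and 2.55 on replicates 2, 3 and 4, and with ethanol in Cy5 it read -3.54 on replicate 8. The 3 values of the first orientation were above the array median and the single value of the other was below it. Among all probes, 14.9% had values on 4 arrays or fewer. With exact zeros kept as values, which is the alternative that lets Vegfa enter the fit, its turning part was -1.40 ± 0.56 (SE) and did not pass (limma adjusted p = 0.428).

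Vegfb, a ligand of Flt1, had the widest gap between the orientations among the tested members. With ethanol in Cy3 its probe (NM_011697) read -1.72, 2.05, -3.83 and -0.21 on replicates 1 to 4. With ethanol in Cy5 it read 1.94, 0.99, 3.06 and 2.68 on replicates 5 to 8. All 4 arrays of the second orientation were positive, 3 of the 4 arrays of the first were negative, and replicate 2 of the first lay inside the range of the second. The orientation means were -0.93 ± 2.47 and 2.17 ± 0.91 (SD, n = 4 each), which is a gap of 3.10. The turning part was 1.55 ± 0.57 (SE; 95% interval 0.28 to 2.81), with an unadjusted p of 0.0214 and an adjusted p of 0.261 (limma). An exact two-sided permutation of the orientation gave p = 0.0857, where 0.0286 is the smallest possible. The size leaned on single arrays. Without replicate 3 the turning part was 1.06 (limma adjusted p = 0.408), and without replicates 3, 4 and 8, whose codes end in r, it was 0.92 (limma adjusted p = 0.738). The shared part was 0.62 ± 0.57 (limma adjusted p = 0.653), and it moved from 0.13 without replicate 2 to 1.10 without replicate 3.

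Vegfc, the main ligand of Flt4, had the smallest shared-part p-value of the family. Its probe (NM_009506) read -1.50, 0.85, -0.42 and -0.89 with ethanol in Cy3, and -0.74, -1.85, -0.72 and 0.07 with ethanol in Cy5. It was below the array median on 6 of 8 arrays, 3 in each orientation, and the ranges overlapped. Its shared part was -0.65 ± 0.35 (SE; 95% interval -1.44 to 0.14; limma adjusted p = 0.441). Flipping array signs in every combination (exact test, two-sided) gave p = 0.0859, where 0.00781 is the smallest possible. Leaving out each array in turn moved the shared part between -0.87 and -0.48. The turning part was -0.16 ± 0.35.

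Pgf, which like Vegfb binds Flt1 but not Kdr, had the narrowest spread between arrays of the tested members. Its probe (NM_008827) read 0.36, -0.31, -0.53 and -0.46 with ethanol in Cy3, and 1.34, -1.18, -0.10 and 0.15 with ethanol in Cy5. Apart from replicates 5 and 6, all values lay within 0.53 of the array median. The fit gave a shared part of -0.09 ± 0.33 and a turning part of 0.15 ± 0.33 (limma adjusted p = 0.923 and 0.894). The 95% interval of the shared part, -0.83 to 0.65, left room for a shared difference of up to 1.78-fold, and that of the turning part for up to 1.85-fold. These 2 ligands of Flt1 were set side by side after their values were seen. Vegfb minus Pgf, taken within each array, averaged -0.69 ± 2.51 with ethanol in Cy3 and 2.11 ± 1.09 with ethanol in Cy5 (SD, n = 4 each). It was positive on 4 of 4 arrays of the second orientation and on 2 of 4 of the first.

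Among the receptors, Flt1 came closest to separating the orientations. Its probe (NM_010228) read -0.22, -0.59, -0.998 and -2.69 with ethanol in Cy3, and -0.38, 1.94, 0.68 and 0.74 with ethanol in Cy5. All 4 arrays of the first orientation were negative and 3 of 4 of the second were positive. Only replicate 5, at -0.38, reached into the range of the first. The orientation means were -1.12 ± 1.09 and 0.74 ± 0.95 (SD, n = 4 each), a gap of 1.87. The turning part was 0.93 ± 0.38 (SE; 95% interval 0.09 to 1.78), with an unadjusted p of 0.0330 and an adjusted p of 0.309 (limma). The exact two-sided permutation test gave p = 0.0571. Without replicate 4 the turning part was 0.67, and without replicate 6 it was 0.73 (limma adjusted p = 0.530 and 0.505). Without the r arrays it was 0.58, which is smaller by more than 1.5 times (limma adjusted p = 0.781). The shared part was -0.19 ± 0.38.

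Kdr, the main signalling receptor for Vegfa, had nearly equal means in the 2 orientations, 0.38 ± 0.84 and 0.44 ± 0.77 (SD, n = 4 each). Its probe (NM_010612) read 0.86, 0.63, -0.87 and 0.91 with ethanol in Cy3, and -0.58, 0.78, 1.23 and 0.32 with ethanol in Cy5. It was above the array median on 6 of 8 arrays, 3 in each orientation, with replicates 3 and 5 below. The turning part was 0.03 ± 0.34 and the shared part 0.41 ± 0.34 (SE; 95% interval of the shared part -0.34 to 1.16; limma adjusted p = 0.606). The exact two-sided sign-flip p of the shared part was 0.156. The turning interval left room for up to 1.72-fold in that part. Flt1 and Kdr bind the same ligand, and their probes were compared array by array after their values were seen. Flt1 minus Kdr was negative on all 4 arrays with ethanol in Cy3, averaging -1.51 ± 1.48, and positive on 3 of 4 with ethanol in Cy5, averaging 0.31 ± 0.71 (SD). Replicate 7, at -0.55, lay inside the range of the first orientation, -3.60 to -0.13.

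Flt4 spread widely. Its probe (NM_008029) read -3.97, 0.37, 1.21 and -1.97 with ethanol in Cy3, and 2.30, -0.19 and -1.69 on replicates 5, 7 and 8, with an exact 0 on replicate 6. The signs were mixed in both orientations and the ranges overlapped over most of their length. Flt4's shared part was -0.48 ± 0.69 and the turning part 0.62 ± 0.69 (limma adjusted p = 0.785 and 0.755). Without replicate 1, the lowest array, the shared part was 0.00, and without replicate 5, the highest, the turning part was 0.076. The difference of Vegfc from Flt4, its receptor, was as wide: 0.60 ± 1.70 with ethanol in Cy3 (SD, n = 4) and -0.60 ± 2.40 with ethanol in Cy5 (SD, n = 3).

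**Figure D2:**
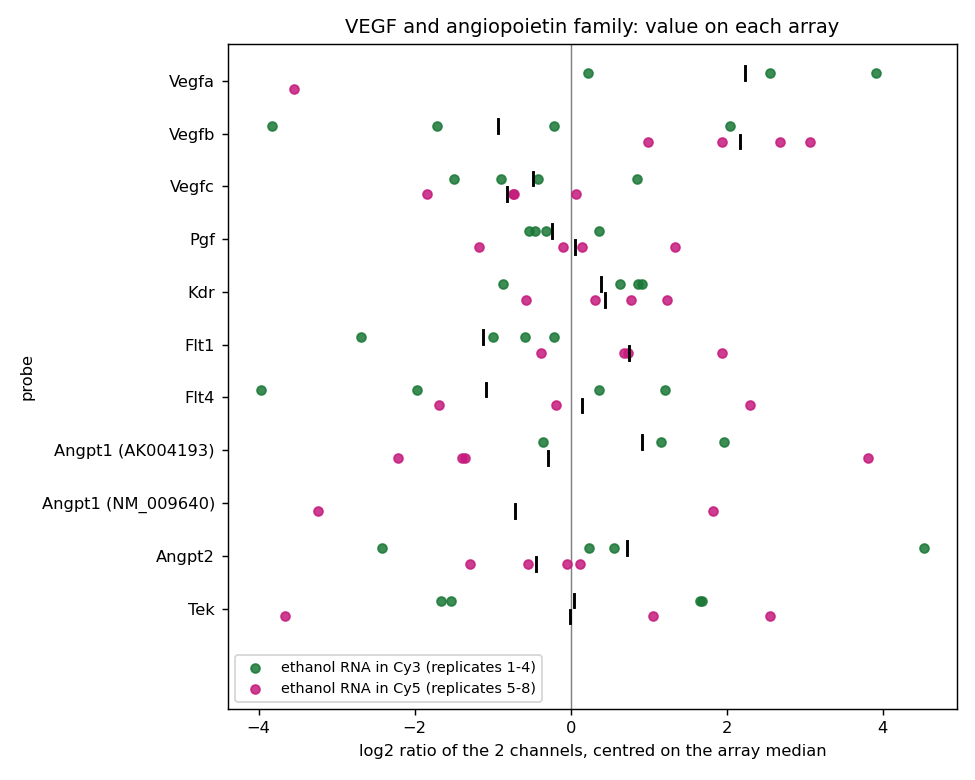
Log2 ratio of the 2 channels, centred on the array median, for each of the 11 family probes (rows) on each array with a computable value; green points are arrays with ethanol RNA in Cy3, pink points arrays with ethanol RNA in Cy5, and black bars are means of 2 or more values. Vegfb and Flt1 have their green points mostly left of their pink points with overlap, Vegfa has 4 values, and the second Angpt1 probe has 2.

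No probe of the angiopoietin axis passed the test. The Angpt1 probe AK004193 read 1.15, -0.35 and 1.96 on replicates 2 to 4, with an exact 0 on replicate 1, and -1.35, -2.21, 3.82 and -1.39 on replicates 5 to 8. Replicate 7 stood far above the other 3 arrays of its orientation, which were all negative. On this probe the shared part was 0.32 ± 0.70 and the turning part -0.60 ± 0.70 (limma adjusted p = 0.869 and 0.764). Without replicate 7 they were -0.37 and -1.29, with the shared part on the other side of 0. The other Angpt1 probe, NM_009640, had a value on 2 arrays only, -3.24 on replicate 5 and 1.82 on replicate 7, and could not be tested. On these arrays both Angpt1 probes were low on replicate 5 and high on replicate 7. NM_009640 was at the array's highest value on replicate 4 and exactly 0 on replicates 1, 2, 3, 6 and 8. With those values kept, its shared part was 2.05 ± 1.89 and its turning part -2.59 ± 1.89 (limma adjusted p = 0.660 and 0.621).

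Angpt2, made by activated endothelium in most tissues, read -2.42, 0.56, 4.53 and 0.23 with ethanol in Cy3 (NM_007426). It read -0.55, -1.30, 0.12 and -0.05 with ethanol in Cy5, so that the second orientation was far tighter than the first (SD 0.63 against 2.87). The shared part was 0.14 ± 0.62 and the turning part -0.58 ± 0.62 (limma adjusted p = 0.938 and 0.741). Both rested on replicate 3. Without it the shared part was -0.49 and the turning part 0.05. Angpt1 minus Angpt2, a contrast of the agonist with its frequent antagonist that was chosen after the values were seen, was positive on 3 of 7 arrays.

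Tek, the receptor of both angiopoietins and a marker of endothelium, varied most between arrays of an orientation. Its probe (NM_013690) read 1.65, -1.66, -1.53 and 1.68 with ethanol in Cy3, and 1.06, 2.55 and -3.66 on replicates 5, 6 and 8, with an exact 0 on replicate 7. Each orientation held values well above and well below the array median. Tek's shared part was 0.01 ± 0.77 and the turning part -0.03 ± 0.77 (limma adjusted p = 0.996 and 0.994). The 95% intervals, -1.73 to 1.75 for the shared part and -1.76 to 1.71 for the turning part, left room for up to 3.36-fold and 3.40-fold.

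The members fell apart by how repeatable they were. The SD between arrays of the same orientation was 0.79 for Pgf, 0.81 for Kdr, 0.90 for Vegfc and 1.02 for Flt1, which placed them at percentiles 19.4, 20.7, 26.1 and 34.4 of all probes tested. Vegfb, at 1.87, stood at percentile 82.1. Angpt2, Flt4, Angpt1 and Tek, at 2.08, 2.22, 2.27 and 2.52, lay between percentiles 88.4 and 95.8. The 3 tested members with a missing value, Flt4, Angpt1 and Tek, were also the 3 widest. The median over the 9 was 1.87, beside 1.25 for all probes tested. How bright the probes were is not known from ratios, and its part in this spread was not tested.

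**Figure D3:**
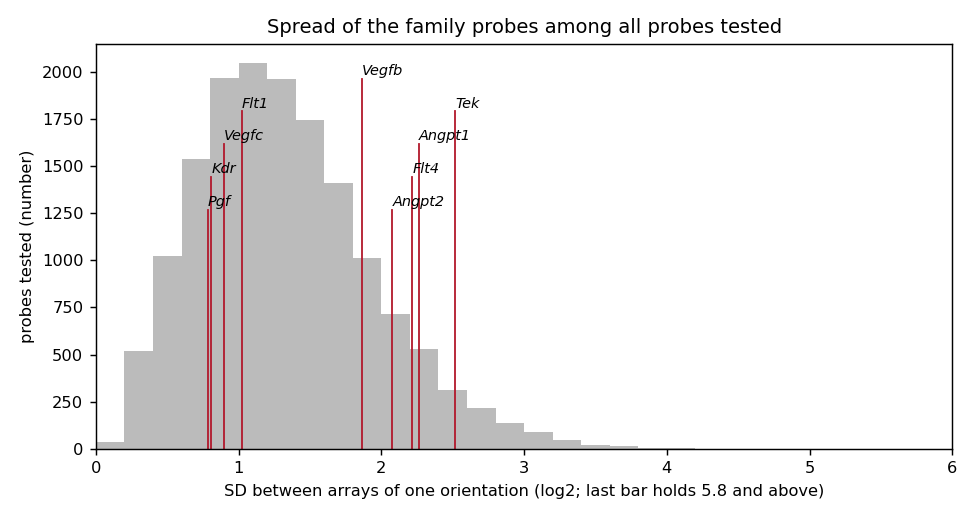
Histogram of the SD between arrays of the same dye orientation (log2 units) for the 15345 probes tested, with a red line at the value of each of the 9 tested family probes. Pgf, Kdr, Vegfc and Flt1 lie in the body of the distribution at 0.79 to 1.02, and Vegfb, Angpt2, Flt4, Angpt1 and Tek lie to the right at 1.87 to 2.52.

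Read array by array, the members lay on both sides of the median on each of the 8 arrays. The number of family probes above the array median was 3 of 8, 7 of 10, 3 of 10 and 5 of 10 on replicates 1 to 4, and 4 of 10, 4 of 8, 6 of 9 and 5 of 10 on replicates 5 to 8. The family's median per array ranged from -0.86 on replicate 1 to 0.68 on replicate 7. The extremes changed from array to array. The lowest member was Flt4 on replicate 1, Vegfb on replicate 3, Flt1 on replicate 4 and Tek on replicates 2 and 8. Angpt1 was lowest on replicate 5 (probe NM_009640) and replicate 6 (AK004193), and Vegfc on replicate 7. The highest was Tek on replicates 1 and 6, Vegfb on replicates 2 and 8, and Angpt2 on replicate 3. Vegfa was highest on replicate 4, Flt4 on replicate 5 and Angpt1 on replicate 7.

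The rest of the pathway was read from 6 lists, none of whose genes are members. Over these and 9 lists of cell type markers, 122 probes were tested. In the shared part 0 genes passed (limma, 0.0% of all probes), and in the turning part 2 genes passed, Cdc42 and Abcc9, where 1.56% of all probes passed. Family partners had 4 of 6 genes on the array tested: Nrp2, the co-receptor of semaphorins and VEGFs, the ligand Vegfd, the orphan receptor Tie1, which pairs with Tek, and the phosphatase Ptprb, which acts on Tek. None of the 4 passed. Ptprb read -0.94 ± 0.39 in the shared part and 1.05 ± 0.39 in the turning part (limma adjusted p = 0.329 and 0.270). Tie1 read -0.89 ± 0.44 in the shared part and Vegfd 0.85 ± 0.48 in the turning part (limma adjusted p = 0.398 and 0.485).

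Hypoxia is the best-known inducer of Vegfa, and neither its regulators nor its target list held a gene that passed. The hypoxia-inducible factor list had 6 of 9 genes tested, 3 positive in the shared part and 4 in the turning part, with medians of 0.05 and 0.20. Hif3a, an alpha subunit with inhibitory isoforms, read 2.00 ± 0.59 in the shared part and -1.21 ± 0.59 in the turning part (limma adjusted p = 0.231 and 0.402). Epas1, the alpha subunit prominent in endothelium, read -0.67 ± 0.71 in the shared part, and the oxygen sensor Egln3 0.80 ± 0.46 in the turning part (limma adjusted p = 0.697 and 0.489). Hypoxia-responsive genes had 19 probes of 14 genes tested, with medians of -0.13 and 0.30. Of the 19, 6 were positive in the shared part and 12 in the turning part, against 46.1% and 56.9% of all probes. The genes named next have the smallest p-values of this list and do not stand for its balance. The glycolytic genes Pgk1 and Ldha read 0.84 ± 0.28 and 1.11 ± 0.40 in the shared part, positive on 8 and 7 of 8 arrays (limma adjusted p = 0.254 and 0.271). The stress gene Ndrg1 read 1.56 ± 0.59 on probe NM_008681, with 0.78 on its other probe, and the glucose transporter gene Slc2a1 -0.57 ± 0.32 in the turning part (limma adjusted p = 0.286 and 0.471). No member of either list passed.

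Downstream of the receptors, 21 probes of 19 signalling genes were tested, with medians of -0.04 in the shared part and -0.01 in the turning part. The small GTPase Cdc42, which acts in cell migration, passed in the turning part on its probe NM_009861 at -3.61 ± 0.65 (limma adjusted p = 0.0284). It read 4.75, 1.98 and 7.80 on replicates 1, 2 and 4 and -1.41, -2.15, -1.92 and -4.02 on replicates 5 to 8, so that the orientations did not overlap. Its other probe, M79301, read 0.40 in the turning part (limma adjusted p = 0.560), on the other side of 0. The call ended without replicate 1, 4, 5, 6, 7 or 8, where the estimate stayed between -3.77 and -2.87 (limma adjusted p from 0.0550 to 0.0987). It also ended with exact zeros and highest values kept, at -3.05, and without the r arrays, at -2.60 (limma adjusted p = 0.216 and 0.180). Mapkapk2, a kinase of the stress branch, read 1.24 ± 0.48 in the turning part (limma adjusted p = 0.286). In the shared part the GTPase-activating protein gene Rasa1 read -2.73 ± 0.95 and the lipid kinase gene Pik3ca -1.32 ± 0.45 on its probe NM_008839 (limma adjusted p = 0.263 and 0.258). The other Pik3ca probe, AK018164, read -0.15. Genes that VEGF receptor signalling is known to induce had 6 of 10 genes tested. All 6 were positive in the turning part, with a median of 1.02, where 56.9% of all probes were positive. All 6 were negative in the shared part, with a median of -0.20, where 46.1% of all probes were positive. None passed: Esm1 read 1.15 ± 0.50 and Rcan1 0.88 ± 0.48 in the turning part, and Egr1 -0.49 ± 0.87 and Nr4a1 -0.78 ± 0.66 in the shared part (limma adjusted p = 0.346, 0.468, 0.827 and 0.627). The signs of the 6 genes were the same with scaled arrays and on the values as deposited. Without centring the median of all probes moved from 0.11 to 0.42 in the turning part and from -0.06 to -0.11 in the shared part. That move runs with these signs and could not turn them, so it is no check of them. Scaling keeps the sign of each array's value and is a weak check. Angiogenesis inhibitors had 4 genes tested, with medians of -0.72 and 0.34. All 4 were negative in the shared part, where 46.1% of all probes were positive. In the turning part 3 of the 4 were positive, against 56.9% of all probes. Adamts1 read -0.85 ± 0.40 and 0.87 ± 0.40 in the 2 parts, Timp3 -0.84 ± 0.47 in the shared part and Col18a1 -0.39 ± 0.39 in the turning part, and none passed (limma adjusted p 0.374 to 0.726).

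**Figure D4:**
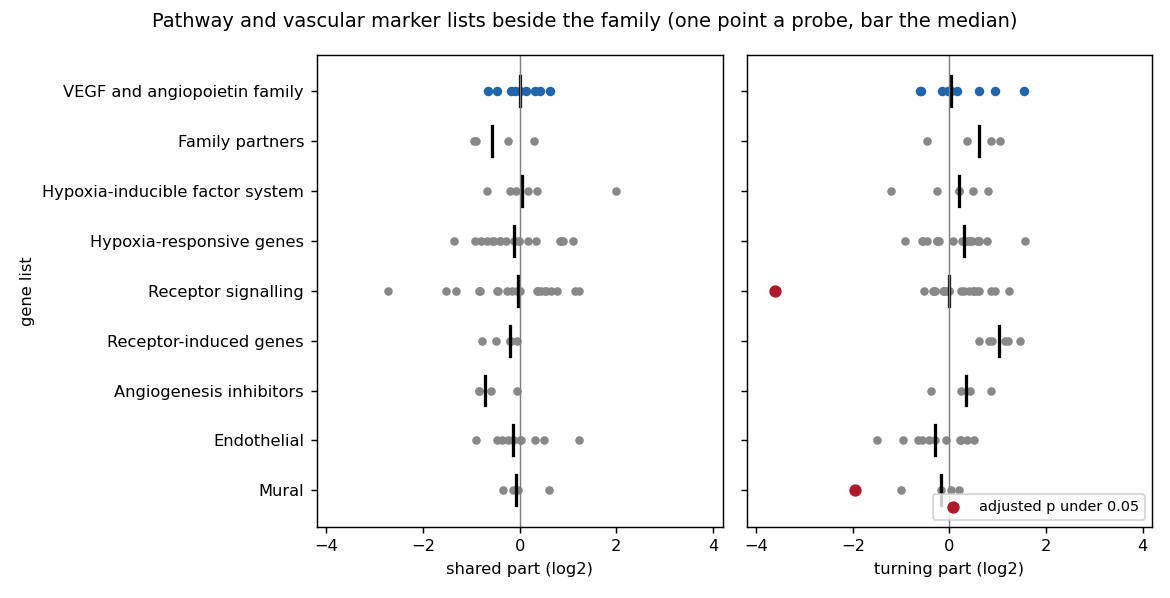
Shared part (left) and turning part (right) in log2 units for each tested probe of the family (blue), of the 6 pathway lists and of the endothelial and mural marker lists (grey, or red where the adjusted p was under 0.05); black bars are medians. The red points are Cdc42 at -3.61 and Abcc9 at -1.95, both in the turning part.

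Receptors of this family mark endothelium, so vascular markers were read beside them. Endothelial markers had 11 of 17 genes on the array tested, and 7 of 18 probes had a value on all 8 arrays, against 48.6% of all probes. Their medians were -0.14 in the shared part and -0.31 in the turning part, where 4 of 11 were positive; on the values as deposited 6 of 11 were positive there. The junction gene Cdh5 read -1.51 ± 0.39 and the adhesion receptor gene Adgrl4 -0.66 ± 0.27 in the turning part, opposite in sign to Flt1, and neither passed (limma adjusted p = 0.128 and 0.318). These 2 have the smallest p-values of the list in that part and do not stand for its balance. The 4 positive markers, Cldn5, Tie1, Erg and Emcn, read 0.52, 0.37, 0.23 and 0.23, the same sign as Flt1. Robo4 and Tie1 read 1.23 ± 0.60 and -0.89 ± 0.44 in the shared part (limma adjusted p = 0.389 and 0.398). Mural markers had 5 of 11 genes tested, with medians of -0.08 and -0.17. By sign, 1 of 5 was positive in the shared part and 2 of 5 in the turning part. In the turning part Myh11, Rgs5 and Notch3 read 0.20, 0.04 and -0.17, so Abcc9, named next, does not stand for the list. Abcc9, a potassium channel regulator of pericytes, passed in the turning part at -1.95 ± 0.38 (limma adjusted p = 0.0351). It read 0.61, 1.74, 1.28 and 2.77 on replicates 1 to 4 and -1.88, -1.16, -3.87 and -2.30 on replicates 5 to 8. The call ended without any single array other than replicate 6 (limma adjusted p 0.0534 to 0.116). It also ended on the values as deposited, without the r arrays, with exact zeros and highest values kept and with at least 2 values per orientation (limma adjusted p = 0.0626, 0.3999, 0.0938 and 0.0516). Over all alternatives the estimate stayed between -2.14 and -1.63. Vtn read 0.60 ± 0.90 and -0.996 ± 0.90 in the 2 parts, and Abcc9 -0.35 ± 0.38 in the shared part (limma adjusted p = 0.794, 0.695 and 0.708). The summed level of vascular markers per group cannot be given from ratios, and their part in the members' values was not tested. In a culture of mixed cells, fewer cells of a type and less RNA per cell cannot be told apart.

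No marker of the other cell types passed in either part by limma. The neural lists had medians in the shared and turning part of 0.29 and -0.05 for progenitors, -0.05 and 0.39 for neurons, -0.51 and -0.00 for astrocytes and 0.16 and 0.15 for the oligodendrocyte lineage. For cells from outside the neural lineage they were -0.19 and 0.57 for microglia and macrophages, -0.21 and -0.08 for meningeal fibroblasts and -0.56 and 0.34 for erythroid cells. On the values as deposited the turning median was positive for each of these 7 lists, as it was for all probes, at 0.42. By sign, 10 of 14 progenitor, 3 of 7 neuronal, 2 of 7 astrocyte, 5 of 9 oligodendrocyte, 3 of 6 microglial, 0 of 2 fibroblast and 1 of 2 erythroid probes were positive in the shared part. In the turning part 5 of 14, 4 of 7, 3 of 7, 6 of 9, 5 of 6, 0 of 2 and 2 of 2 were. The genes named next have the smallest p-values of their lists and do not stand for the lists' balance. In the shared part, the progenitor genes Vim and Slc1a3 (probe L19565) read 0.98 and -0.98, with 0.0064 on the other Slc1a3 probe, the neuronal genes Dcx and Syt1 -1.88 and -1.07, and the astrocyte genes Clu and S100b -1.83 and -1.28. Cldn11 and Pdgfra of the oligodendrocyte lineage read -1.92 and -1.004, C1qa and Fcer1g of microglia -1.24 and -0.55, Col3a1 and Dcn of fibroblasts -0.05 and -0.37, and Hba-a1 and Alas2 of red cells -1.43 and 0.31. In the turning part, Pax6 read 3.82 on probe AF098640 (limma adjusted p = 0.0572) and 0.56 on NM_013627, and Slc1a3 read -0.52 on probe U75378 and -0.29 on L19565. The first Pax6 probe passed on the values as deposited, with array weights, over probes with values on all 8 arrays, without the r arrays and without replicate 3 (limma adjusted p 0.00133 to 0.0489), and S100b on the values as deposited (limma adjusted p = 0.0494). Dcx and Snap25 read 0.89 and 0.54, S100b and Clu 1.24 and -0.77, and Sox10 and Olig2 1.15 and -0.59. There C1qa and Fcer1g read 1.39 and 0.71, Col3a1 and Dcn -0.07 and -0.09, and Alas2 and Hba-a1 0.35 and 0.33.

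The probes most like Vegfc and Vegfb, the members with the smallest p in the shared and the turning part, were sought among 8679 other named probes with values on all 8 arrays. For Vegfc they were Nxnl1, Nmt2 and Dhx58, with Pearson r over the 8 arrays of 0.972, 0.942 and 0.927. For Vegfb they were Dnaaf4, Unc5cl and Asb4, with r of 0.950, 0.934 and 0.911. These are the highest of many correlations over few arrays and are given as a description. No family member was among them.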

How the data were processed

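Total RNA of control and ethanol-exposed cultures was labelled with a Genisphere 3DNA kit and hybridised to 22K two-colour mouse arrays, per the labels' protocols. The log2 ratios used are those the authors deposited, 1 per probe and array. How the arrays were scanned, background-corrected and normalized is not given in the sources used here. On every array low values equal a per-array constant plus the base-2 log of a ratio kept to 3 decimals, so the log base is 2 and no ratio under 0.001 can be held. Exact zeros and each array's highest value (a ratio of 100000) were set missing, and arrays were centred on their medians. These medians ran from -0.435 to -0.324 on replicates 1 to 4 and from 0.023 to 0.516 on replicates 5 to 8. Probes with at least 3 values per orientation were fitted with limma 3.58.1 (lmFit, eBayes, R 4.3.3). Benjamini-Hochberg adjustment ran over 15345 probes with a threshold of 0.05. The fit was tested on simulated data. SE is that of the moderated fit. Probes were named from the platform's annotation, with symbols updated by Entrez number (15957 of 16635 probes with 1 symbol matched). Neither files nor labels name a genome build.

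All member probes are named; other list genes are named where a probe passed or was among the 2 smallest p-values of its list in either part. Likeness is Pearson's r over 8 arrays. The members and lists were chosen with earlier results of these data known. Alternatives covered centring, scaling, missing values, filters, moderation, array weights, a block and left-out arrays.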

Additional observations from a re-analysis of the deposited data

Results flagged for a closer look

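Single arrays stood far from the other 3 of their orientation for 6 of the genes named above, of 92 groups of 4 arrays examined; chance alone sets apart about 1 in 20 such groups. Among the members, Kdr was at -0.87 in replicate 3 where the rest of the Cy3 arrays gave 0.63 to 0.91, and Angpt1 (AK004193) was at 3.82 in replicate 7 where the rest of the Cy5 arrays gave -2.21 to -1.35. Among the other genes with ethanol in Cy3, Cldn11 was at -6.14 in replicate 1 beside -2.06 to -1.29, Sox10 at -2.93 in replicate 2 beside -1.65 to -1.54, and Col3a1 at -1.72 in replicate 3 beside 0.46 to 0.84. With ethanol in Cy5, Hba-a1 was at -3.81 in replicate 5 beside -0.30 to -0.03.

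By limma's test the orientations differed for 2 genes of the fixed lists, on 2 of 122 probes, where 1.56% of all probes passed. The turning part was -3.61 for Cdc42 on probe NM_009861, with 0.40 on its other probe, and -1.95 for Abcc9. Both calls ended in most of the fits that left out a single array.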

How the results depend on the processing

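No family probe passed in either part under any of the 18 alternative settings, which gave 158 values per part (smallest limma adjusted p 0.348 shared, 0.112 turning). The sign of the shared part held in 144 and that of the turning part in 141; every member whose sign turned had an adjusted p of 0.621 or more there, and the cause was not tested. Without the r arrays (replicates 3, 4 and 8), the shared part was 0.023 for Pgf, 0.17 for Flt1 and -0.75 for Angpt2, and the turning part -0.00033 for Pgf, -0.13 for Kdr, 0.18 for Angpt2 and 0.90 for Tek. With scaled arrays and with array weights the shared part of Tek was -0.0786 and -0.0789, and with array weights the turning part of Kdr was -0.014. On the values as deposited the turning part was 0.16 for Vegfc and 0.33 for Tek. Leaving out each array in turn, the shared part ranged from -0.31 to 0.11 for Pgf, -0.39 to 0.071 for Flt1, -1.02 to 0.0038 for Flt4, 0.13 to 1.10 for Vegfb, 0.28 to 0.62 for Kdr, -0.37 to 0.64 for Angpt1, -0.49 to 0.67 for Angpt2 and -0.63 to 0.92 for Tek. The turning part ranged from 1.06 to 2.04 for Vegfb, 0.67 to 1.12 for Flt1, 0.076 to 1.07 for Flt4, -1.29 to -0.28 for Angpt1, -0.33 to 0.062 for Vegfc, -0.0695 to 0.35 for Pgf, -0.18 to 0.20 for Kdr, -1.11 to 0.0497 for Angpt2 and -0.67 to 0.88 for Tek.

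Over all probes, 239 passed in the turning part, against 417 on the values as deposited, 127 with exact zeros and highest values kept, 73 without the r arrays and 143 to 188 without single arrays. Of the list genes 2 passed there, Cdc42 and Abcc9, against 3 on the values as deposited (Cdc42, Pax6 and S100b), 3 with array weights (Cdc42, Abcc9 and Pax6), 0 with zeros and highest values kept, 1 with at least 2 values per orientation (Cdc42), 1 without the r arrays (Pax6) and 0 to 2 without single arrays. Over probes with values on all 8 arrays the 2 were Abcc9 and Pax6.

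The arrays' code numbers 3, 5 and 1r occur in both orientations, and no label says that they mark a shared culture. Arrays that share a code number had deviations correlated at 0.016, -0.035 and 0.040 over 10486 probes; with the code number as a replicate block 242 probes passed in the turning part, and no family probe did. The 95% intervals left room for 1.78-fold (Pgf) to 4.11-fold (Flt4) in the shared part and for 1.72-fold (Kdr) to 7.04-fold (Vegfb) in the turning part.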
